A study of Mus musculus with 8 samples.

Results

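The chemokine gene Cxcl12 and the genes of its receptors Cxcr4 and Ackr3, 3 of the 22180 genes measured, were followed across the arrays of Sox2-positive and Sox2-negative medulloblastoma cells. The members and the gene lists set beside them were chosen by name, with earlier results of these data known. Each member was read by the only probe set that carried its symbol alone. The tumours arose in Patched1+/- mice on a CD1 background that also carried a Sox2-eGFP reporter from B6 parents. All mice were irradiated at birth (3 Gy, ionizing), and tumours were collected when disease first showed, past an age of 70 days. Tumour cells were depleted of CD45-positive white and Ter119-positive red blood cells and sorted by eGFP. Each of the 8 arrays held RNA pooled from sorted cells of 3 tumours, with 4 pools of eGFP-positive cells (Sox2-positive) and 4 pools of eGFP-negative cells (Sox2-negative), so p-values measure the spread between pools.

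Cxcl12 is a secreted chemokine that attracts cells bearing Cxcr4, a receptor that signals through inhibitory G proteins. In the developing cerebellum, Cxcl12 from the meninges holds granule neuron progenitors, which carry Cxcr4, at the outer surface, and adds to their response to Sonic hedgehog. Ackr3, formerly Cxcr7, is an atypical receptor that binds Cxcl12, recruits beta-arrestins rather than coupling to G proteins in the usual way, and removes the chemokine from its surroundings.

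The bases just before the annotated start of each gene are shown because the receptor levels leaned in opposite directions between the fractions. They are RefSeq sequences of GRCm38.p6, 120 bases each, read 5′ to 3′ on the strand of the gene, at chr1:128592300-128592419 on the minus strand for Cxcr4, chr1:90203860-90203979 on the plus strand for Ackr3 and chr6:117168415-117168534 on the plus strand for Cxcl12. Capitals mark matches, on either strand, to the TATA box, TATAAA, or to the palindromic motif of the factor NRF1, which is the first capital run of the Cxcr4 window.
Cxcr4: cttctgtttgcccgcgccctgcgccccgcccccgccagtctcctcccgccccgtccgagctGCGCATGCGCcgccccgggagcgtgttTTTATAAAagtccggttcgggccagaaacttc
Ackr3: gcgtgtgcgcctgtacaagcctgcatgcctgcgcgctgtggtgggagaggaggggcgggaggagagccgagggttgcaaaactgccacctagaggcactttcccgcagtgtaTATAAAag
Cxcl12: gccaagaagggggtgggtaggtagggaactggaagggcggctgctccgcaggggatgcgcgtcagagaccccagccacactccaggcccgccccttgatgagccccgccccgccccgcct
The Cxcr4 window held the NRF1 motif once, which 0.584% of the 32851 such windows in the table held. TATAAA lay in the windows of both receptors, on both strands and overlapping in Cxcr4, and in 6.34% of all windows. The Cxcl12 window held neither. The letters GACCACCCA (Gli) and ACAATG (Sox), held by 0.0852% and 4.96% of all windows, were in none of the 3. A match is only a match of letters.

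Neither receptor nor the chemokine passed the test between the fractions in the fit without pairing. By limma with Benjamini-Hochberg adjustment over all genes, 0 of the 3 had an adjusted p under 0.05, where 8.47% of all genes did. With the pool number as a replicate block it was 1 of 3, Ackr3, against 10.6% of all genes. At an unadjusted p under 0.05 it was 2 of 3, Cxcr4 and Ackr3, against 20.1% of all genes, and by the exact permutation test it was 0 of 3 against 13.7%. With 4 against 4 arrays that test passes where the groups do not overlap, and they overlapped for each of the 3. As a check of the sort, Sox2 was 3.13-fold higher in Sox2-positive cells (a log2 difference of 1.65 with SE 0.17, adjusted p = 2.53e-05).

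Cxcr4 leaned towards the Sox2-negative cells. Its log2 values in Sox2-positive pools 1 to 4 were 8.07, 7.95, 8.05 and 8.04. In Sox2-negative pools 1 to 4 they were 8.51, 9.05, 8.01 and 8.43. Pool 3 of the Sox2-negative cells lay among the Sox2-positive pools, and the other 3 lay above all of them. The means were 8.03 ± 0.051 and 8.50 ± 0.43 (SD, n = 4 each), a log2 difference of -0.47 (SE 0.16, 95% interval -0.83 to -0.12), or 1.39-fold more in Sox2-negative cells (limma adjusted p = 0.109; exact two-sided permutation p = 0.114, where 0.0286 is the smallest that 4 against 4 arrays allow). The Sox2-negative value was the higher one in 13 of the 16 pairs of arrays and in 3 of the 4 pairs of the same pool number. In bulk samples, fewer cells of a type and less RNA per cell cannot be told apart.

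The Sox2-positive pools were close together in Cxcr4, with a range of 0.11 on the log2 scale, and the Sox2-negative pools were spread over 1.04. Single Sox2-negative pools therefore decided its size. Without pool 3, the low one, the log2 difference was -0.63 (limma adjusted p = 0.0123, exact permutation p = 0.0286). Pool 3 was the array that made the groups overlap, so that permutation p is the smallest the arrays left allow. Without pool 2, the high one, it was -0.29 (adjusted p = 0.188). Array weights, which count poorly fitting arrays less, gave Sox2-negative pool 2 the lowest weight of all arrays (0.51). With them the log2 difference of Cxcr4 was -0.39 (adjusted p = 0.114). Quantile normalization of the deposited values also took Cxcr4 past the test (-0.55, adjusted p = 0.0416).

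Ackr3 leaned the other way, towards the Sox2-positive cells. Its log2 values were 6.57, 7.02, 6.43 and 6.85 in Sox2-positive pools 1 to 4. In the Sox2-negative pools they were 6.43, 6.14, 6.16 and 6.45. Of the 16 pairs of arrays, 15 had the Sox2-positive value higher, and the exception was Sox2-positive pool 3 against Sox2-negative pool 4. The means were 6.72 ± 0.27 and 6.29 ± 0.17 (SD, n = 4 each), a log2 difference of 0.43 (SE 0.13, 95% interval 0.14 to 0.71), or 1.34-fold (limma adjusted p = 0.0645; exact two-sided permutation p = 0.0571). The Sox2-positive value was higher in 4 of 4 pairs of the same pool number. With the pool number as a replicate block the adjusted p was 0.0414, and without Sox2-positive pool 3 the log2 difference was 0.52 (adjusted p = 0.0298, exact permutation p = 0.0286). Without that pool the groups no longer overlapped, and this permutation p is the smallest the arrays left allow. With dim genes left out, so that fewer genes were tested, the adjusted p was 0.0438. Ranked by p among the 22180 genes, Ackr3 stood at 2158 and Cxcr4 at 2682.

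Cxcl12, the ligand, showed the smallest of the 3 log2 differences. Its log2 values were 6.56, 6.56, 6.65 and 6.65 in Sox2-positive pools 1 to 4, and 6.36, 6.96, 7.04 and 6.77 in the Sox2-negative pools. Sox2-negative pool 1 lay below all Sox2-positive pools and the other 3 lay above them. The means were 6.60 ± 0.052 and 6.78 ± 0.30 (SD, n = 4 each), a log2 difference of -0.18 (SE 0.13, 95% interval -0.46 to 0.10; limma adjusted p = 0.49; exact two-sided permutation p = 0.286). That interval runs from 0.729-fold to 1.07-fold in Sox2-positive over Sox2-negative cells. Without Sox2-negative pool 1 the log2 difference was -0.32 (limma adjusted p = 0.086, exact permutation p = 0.0286), and without pool 3 it was -0.09 (adjusted p = 0.752). Dropping pool 1 removed the overlap of the groups, so its permutation p is the smallest the arrays left allow.

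**Figure D1:**
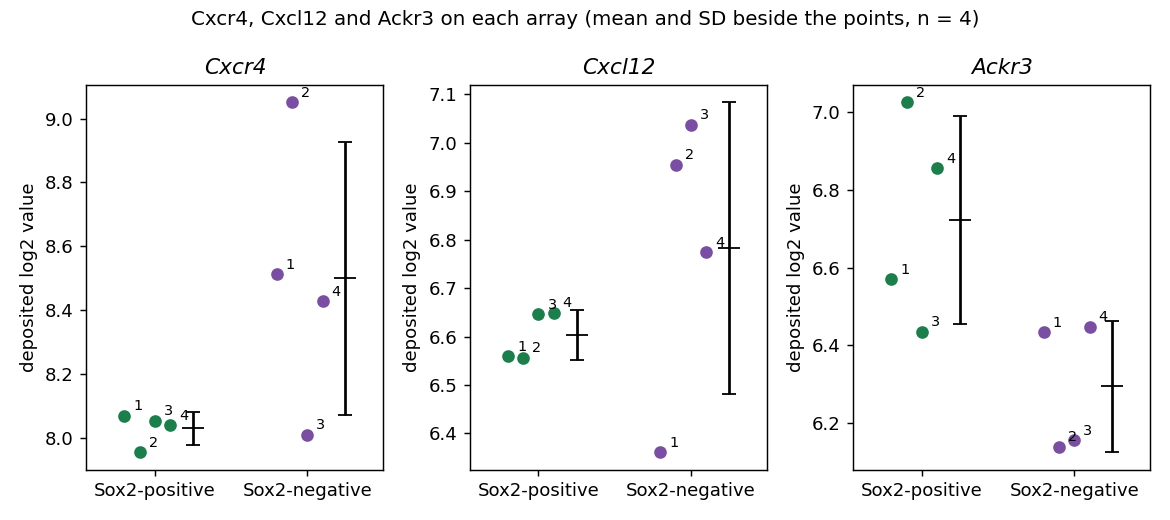
Deposited log2 values (vertical axes, a separate scale per gene) of Cxcr4, Cxcl12 and Ackr3 on each array, numbered by pool, with the group mean and SD (n = 4) beside the points. The Sox2-positive pools of Cxcr4 span 0.11 and the Sox2-negative pools 1.04, and the groups overlap for all 3 genes.

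The pools that set the spread were not the same for the 3 genes. Sox2-negative pool 2 was the highest of its group in Cxcr4 and the lowest in Ackr3. Sox2-negative pool 3 was the lowest in Cxcr4 and the highest in Cxcl12. Deviations from the group means over the 8 arrays correlated at -0.08 between Cxcr4 and Cxcl12, at -0.15 between Cxcr4 and Ackr3 and at -0.47 between Cxcl12 and Ackr3, as a description of arrays that share their fraction and scaling. Each group mean of the 3 genes lay above 5.80, the upper quartile over olfactory and vomeronasal receptors, a family not known from such cells that served as a guide to dim values. Members of that family lay above it too. The olfactory receptor gene Olfr1057 had means of 6.60 (Sox2-positive) and 6.76 (Sox2-negative), near the 6.60 and 6.78 of Cxcl12. Ackr3, with means of 6.72 and 6.29, lay at a like level, and its Sox2-negative mean was below that of Olfr1057. Lying above the guide therefore does not show that a gene is expressed.

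**Figure D2:**
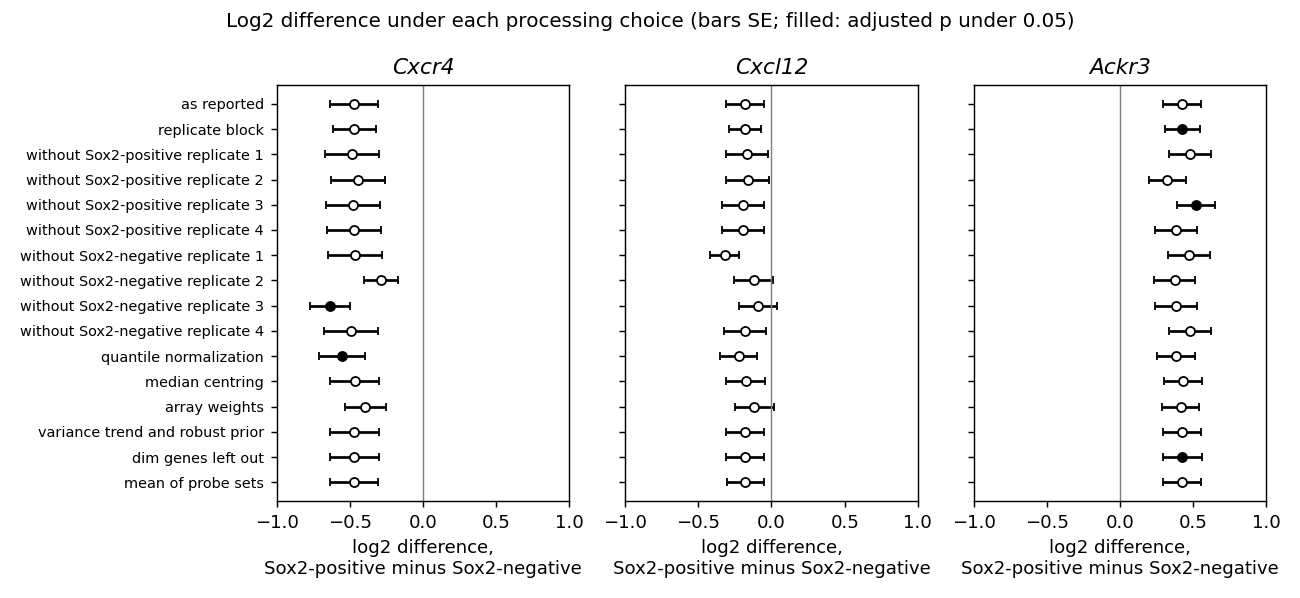
Log2 difference, Sox2-positive minus Sox2-negative (horizontal axes), of each gene as reported and under the 15 alternatives, with SE bars and filled points where the adjusted p was under 0.05. Cxcr4 ranges from -0.63 to -0.29, Ackr3 from 0.33 to 0.52 and Cxcl12 from -0.32 to -0.09, and 4 of the 15 cannot move these differences by construction.

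Mmp2 and Cxcl14 were higher in Sox2-positive cells among proteins that modify Cxcl12 or its receptors or bind to them. They were the 2 of 11 measured genes of this list that rose, with 0 lower, where 5.96% of all genes were higher and 2.52% lower. The list's median log2 difference was 0.15, against -0.03 over all genes. Mmp2, a secreted metalloprotease able to cleave Cxcl12, had log2 values of 7.76, 7.85, 8.19 and 7.71 in Sox2-positive pools and of 6.44, 6.83, 6.87 and 6.29 in Sox2-negative pools. The groups were well apart, at 2.42-fold (a log2 difference of 1.27 with SE 0.14, adjusted p = 5.34e-05). Cxcl14, a chemokine reported to bind Cxcr4, was 1.87-fold higher (a log2 difference of 0.90 with SE 0.13, adjusted p = 0.000583), with 6.82 ± 0.25 against 5.92 ± 0.21. Values of Mif, an alternative Cxcr4 ligand, and Dpp4, the peptidase that removes the first residues of Cxcl12, differed by 0.11 (adjusted p = 0.596) and 0.07 (adjusted p = 0.746). Cxcl11, the other chemokine ligand of Ackr3, differed by -0.10 (adjusted p = 0.65).

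Of the proteins that act directly at such receptors, 4 of 16 measured genes were higher and 0 lower, against 5.96% and 2.52% of all genes. The median log2 difference was 0.15. Gnai2, an alpha subunit of the inhibitory G proteins, had log2 values of 9.17, 9.21, 9.38 and 9.19 in Sox2-positive pools and of 8.55, 8.79, 8.46 and 8.21 in Sox2-negative pools. The lowest Sox2-positive value lay above the highest Sox2-negative one, and the fold was 1.67 (adjusted p = 0.000943). Arrb1, which encodes beta-arrestin 1, was 1.60-fold higher (a log2 difference of 0.68 with SE 0.097, adjusted p = 0.000465), and the G protein beta subunit gene Gnb4 was 1.86-fold higher (adjusted p = 0.00274). Gnai1, another alpha subunit, was 1.43-fold higher (adjusted p = 0.0353). It no longer passed once Sox2-positive pool 2 or 3, or any Sox2-negative pool but 3, was dropped (0.0809 to 0.12), nor under array weights (0.0501). Arrb2, which encodes beta-arrestin 2, differed by -0.05 (adjusted p = 0.833), and the receptor kinase gene Grk3 by -0.29 (adjusted p = 0.304). That Arrb1 and Arrb2 differ from each other was not tested.

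Further downstream, 5 of 18 measured genes were higher and 1 lower, against 5.96% and 2.52% of all genes. The median log2 difference was 0.17. Stat3, a transcription factor reported downstream of Cxcr4 and of many cytokine receptors, had log2 values of 8.32, 9.07, 8.85 and 8.56 in Sox2-positive pools. In Sox2-negative pools it had 7.07, 6.76, 7.21 and 7.07. The groups were more than 1 log2 unit apart, at 3.18-fold (a log2 difference of 1.67 with SE 0.15, adjusted p = 7.71e-06). Its upstream kinase gene Jak2 was 1.62-fold higher (adjusted p = 0.011). The small GTPase gene Rhoa, which acts on the actin cytoskeleton in migration, was 1.49-fold higher (adjusted p = 0.00624), but averaging its probe sets gave a log2 difference of 0.28 that did not pass (0.0842). The other higher genes were Cdc42 (1.36-fold, adjusted p = 0.0195) and the Rac activator gene Dock1 (1.37-fold, adjusted p = 0.0283). Cdc42 no longer passed once Sox2-negative pool 4, or Sox2-positive pool 2 or 3, was dropped (0.0526 to 0.0668), nor with its probe sets averaged (0.096). Dock1 failed likewise once Sox2-negative pool 3 or 4, or any Sox2-positive pool but 1, was dropped (0.0563 to 0.0912). Limk1, a kinase that stabilises actin filaments, fell by 0.32 on the log2 scale (adjusted p = 0.0378), and passed with 1 array dropped only where that array was Sox2-negative pool 1 (0.0522 to 0.118 for the others). The count of higher genes was 3 without Sox2-negative pool 4 or without Sox2-positive pool 2 or 3, or with probe sets averaged. It was at most 6 with 1 array left out, and 7 with the pool number as a replicate block. Cdc42, Dock1 and Limk1 were named after their values were seen.

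Of 28 other chemokine genes measured, 3 were higher and 0 lower, against 5.96% and 2.52% of all genes (median log2 difference -0.05). Besides Cxcl14, the higher genes were Cxcl10, an interferon-induced ligand of Cxcr3, and Ccl2, which attracts monocytes. Cxcl10 was 1.86-fold higher (a log2 difference of 0.89 with SE 0.13, adjusted p = 0.000668), at 5.83 ± 0.31 against 4.94 ± 0.090. The Sox2-negative mean lay below the guide to dim values, where RMA values compress differences. Ccl2 was 1.33-fold higher (adjusted p = 0.0196), but missed the threshold with 1 of 4 arrays dropped, Sox2-negative pools 1 and 3 and Sox2-positive pools 3 and 4 (0.054 to 0.0689).

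Of 20 other chemokine receptor genes measured, 0 were higher and 1 was lower, against 5.96% and 2.52% of all genes (median log2 difference -0.09). Both group means lay below the guide to dim values for 13 of the 20. The lower gene was Ackr1, an atypical receptor that binds many chemokines but not to signal, known from red blood cells, venules and Purkinje neurons. Its log2 values were 6.60, 6.38, 6.94 and 6.57 in Sox2-positive pools and 7.14, 7.26, 7.73 and 7.10 in Sox2-negative pools. The groups did not overlap, and Ackr1 fell by 0.68 on the log2 scale in Sox2-positive cells (SE 0.15, adjusted p = 0.00976), the direction opposite to that in which Ackr3 leaned.

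**Figure D3:**
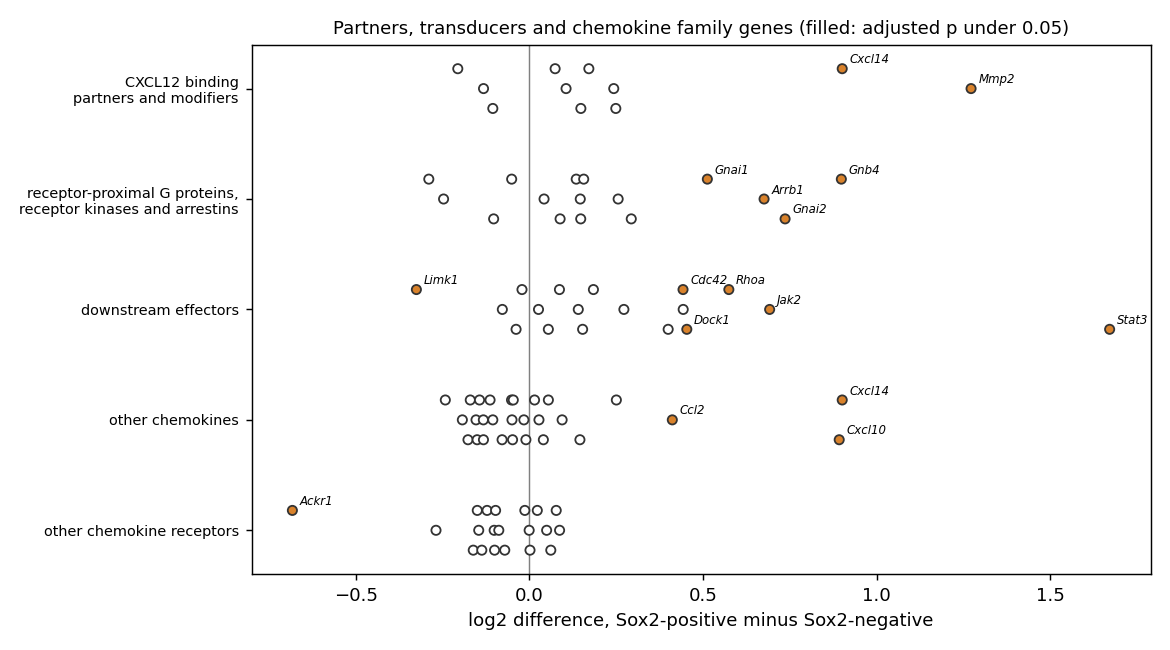
Log2 difference, Sox2-positive minus Sox2-negative (horizontal axis), of each measured gene of the 5 pathway and family lists, 1 point per gene, filled and named where the adjusted p was under 0.05. Stat3 (1.67) and Mmp2 (1.27) lie farthest to the right, and Ackr1 (-0.68) farthest to the left.

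Markers of the cell types known to use these genes were set beside them. Of 12 markers of granule neuron progenitors, which carry Cxcr4 in development, 10 were lower and 1 higher in Sox2-positive cells (median log2 difference -0.73). Over all genes 2.52% were lower and 5.96% higher. The list mean per array was 8.07 to 8.25 among Sox2-positive pools, against 8.67 to 9.00. Zic2 fell by 1.09, Pax6 fell by 0.90 and Zic1 fell by 0.85, all transcription factors of this lineage, and Ccnd1, a D cyclin, was the gene that rose (0.58, adjusted p = 0.00282). The count of lower genes was 6 without Sox2-positive pool 2, and 7 to 11 under the other alternatives. The part of this change in the values of Cxcr4 was not tested.

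Glial markers moved the way Ackr3 leaned, where 5.96% of all genes were higher and 2.52% lower. Of 10 oligodendrocyte progenitor markers 10 were higher (median log2 difference 2.28), led by the transcription factors Olig1 (16.1-fold) and Olig2 (10.9-fold) and the receptor Gpr17 (7.73-fold). Of 10 astrocyte markers 6 were higher and 0 lower (median 0.77), among them the glutamate transporter Slc1a3 (4.46-fold), the adhesion protein Hepacam (2.91-fold) and the water channel Aqp4 (2.63-fold). The calls of Enpp6 and Gja1, named after their values were seen, were the unstable ones of these lists. Enpp6 was lost in 6 of 15 alternatives (up to 0.112), each Sox2-negative pool dropped among them, which left 9 oligodendrocyte progenitor genes. Gja1, a gap junction protein, was lost in 8 of 15 (up to 0.133), again with each Sox2-negative pool dropped, which left 5 astrocyte genes. The list means were 8.05 to 8.88 against 6.09 to 6.10 for oligodendrocyte progenitors and 7.05 to 7.65 against 6.41 to 6.53 for astrocytes. Their part in the values of Ackr3 was not tested.

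Cxcl12 is known from vessel walls and meninges, and few markers of those cells passed the test. Over all genes 5.96% were higher and 2.52% lower. None of the 11 endothelial markers did by limma (0 higher, 0 lower, median -0.07), and both group means lay below the guide for 7 of them. The largest difference was that of Tek, a receptor of endothelial cells (-0.28, adjusted p = 0.134). Of 10 markers of meningeal fibroblasts 0 passed (median -0.04, 6 below the guide), with the largest difference in Foxc1 (0.19, adjusted p = 0.356). Of 7 pericyte markers 1 was higher, Rgs5 (1.29-fold, adjusted p = 0.0174), which failed once Sox2-positive pool 4 was dropped (0.0571) or its probe sets were averaged (0.252). With the replicate block 1 pericyte marker was also lower. The list means of these cells overlapped between the fractions, at 5.36 to 5.41 against 5.39 to 5.53 for endothelial cells, 5.42 to 5.52 against 5.41 to 5.50 for meningeal fibroblasts and 6.01 to 6.07 against 6.01 to 6.15 for pericytes.

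White blood cells also carry Cxcr4, and the sort was meant to deplete them. Of 11 markers of microglia and macrophages 0 passed the test (median -0.05), where 8.47% of all genes did. Both group means lay below the guide for 6 of these markers. Their list means were 5.67 to 5.74 against 5.62 to 5.82. Other kinds of white blood cells had no list of markers. Ptprc, which encodes the CD45 used in the depletion, had means of 4.47 ± 0.13 (Sox2-positive) and 4.71 ± 0.062 (Sox2-negative), below the guide in both, and its difference did not pass (-0.23, adjusted p = 0.152).

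**Figure D4:**
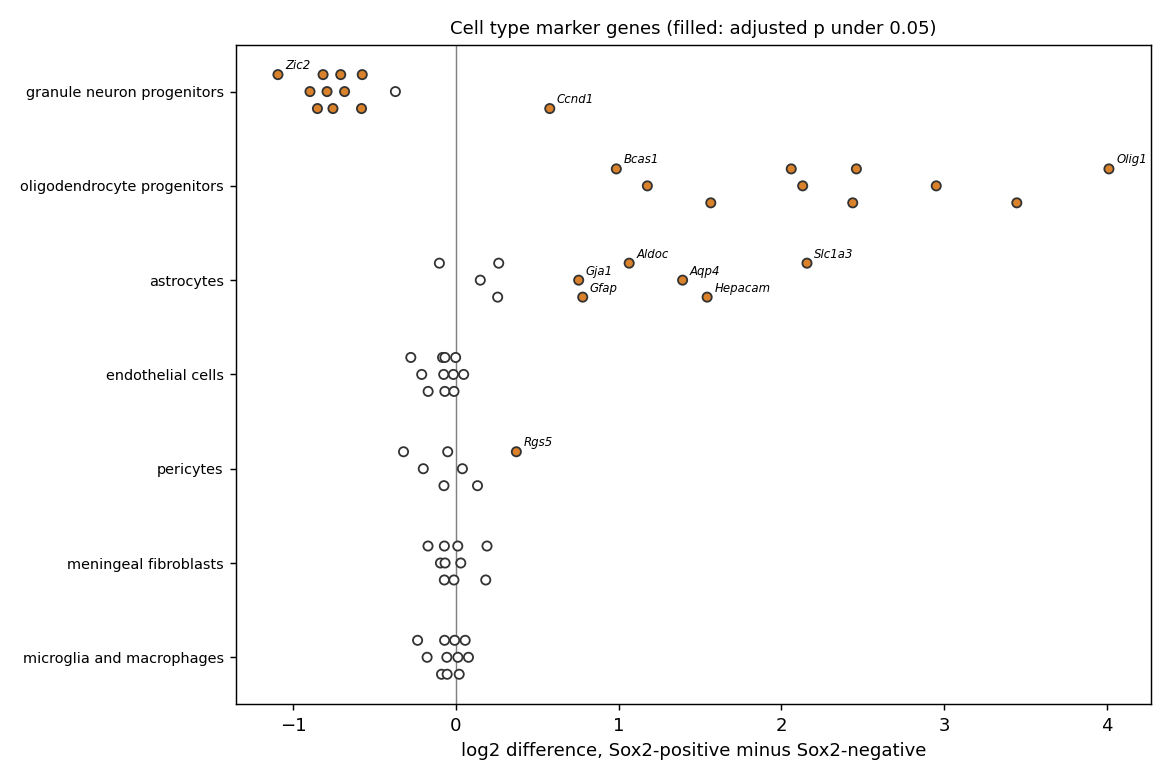
Log2 difference, Sox2-positive minus Sox2-negative (horizontal axis), of each measured cell type marker, 1 point per gene, filled where the adjusted p was under 0.05. In lists with 8 or more filled points only the lowest and highest filled gene is named. Oligodendrocyte progenitor markers and, except for Sox9 (-0.10), astrocyte markers lie to the right, granule neuron progenitor markers except Ccnd1 to the left, and the vessel, meningeal and microglial markers around 0.

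The genes whose values were most like those of each member were taken by Pearson's r over the 8 arrays. They came from 10524 genes whose mean over the 8 arrays lay above the guide, predicted models and small RNA genes left out. The 8 arrays share their fraction and their scaling, and the highest of so many correlations over 8 points are high by selection. For Cxcr4 they were Igdcc4 (r = 0.985), an immunoglobulin family membrane protein, Selenoh (0.977), the olfactory receptor gene Olfr633 (0.977), the kinase gene Rps6ka6 (0.975) and the histone deacetylase gene Hdac9 (0.971). The most opposed were Mvk (-0.987), which encodes mevalonate kinase, Wfs1 (-0.964) and Zfp523 (-0.955). None of these 8 passed the limma test between the fractions (adjusted p from 0.0878 for Olfr633 to 0.647 for Zfp523), and they shared with Cxcr4 the high Sox2-negative pool 2 and the low pool 3, or the reverse. Olfr633, picked for this likeness, leaned by -0.39 on the log2 scale, and its groups did not overlap.

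For Cxcl12 the most alike were Olfr1057 (r = 0.934), the homeobox gene Lhx2 (0.928), the RNase H2 subunit gene Rnaseh2a (0.907), the zinc finger factor gene Osr1 (0.904) and the general transcription factor gene Gtf2e2 (0.902). The most opposed were Dip2a (-0.964), the phospholipase C gene Plcb3 (-0.929), also among the downstream effectors, and Ammecr1 (-0.922). For Ackr3 the most alike were Fam13c (r = 0.988), the kinase gene Nek6 (0.965), Zfp385a (0.955), Sbno2 (0.944) and Plekhg2 (0.938). The most opposed were the thyroid hormone transporter gene Slco1c1 (-0.975), the transcription factor gene Dach1 (-0.971) and Sumo2 (-0.961). Of the 16 genes named for Cxcl12 and Ackr3, Sbno2 (log2 difference 0.62, adjusted p = 0.0189) and Plekhg2 (0.51, adjusted p = 0.0186) passed the limma test. Sbno2 did not pass once pool 2 of either fraction, or Sox2-positive pool 4, was dropped (0.0684 at most).

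**Figure D5:**
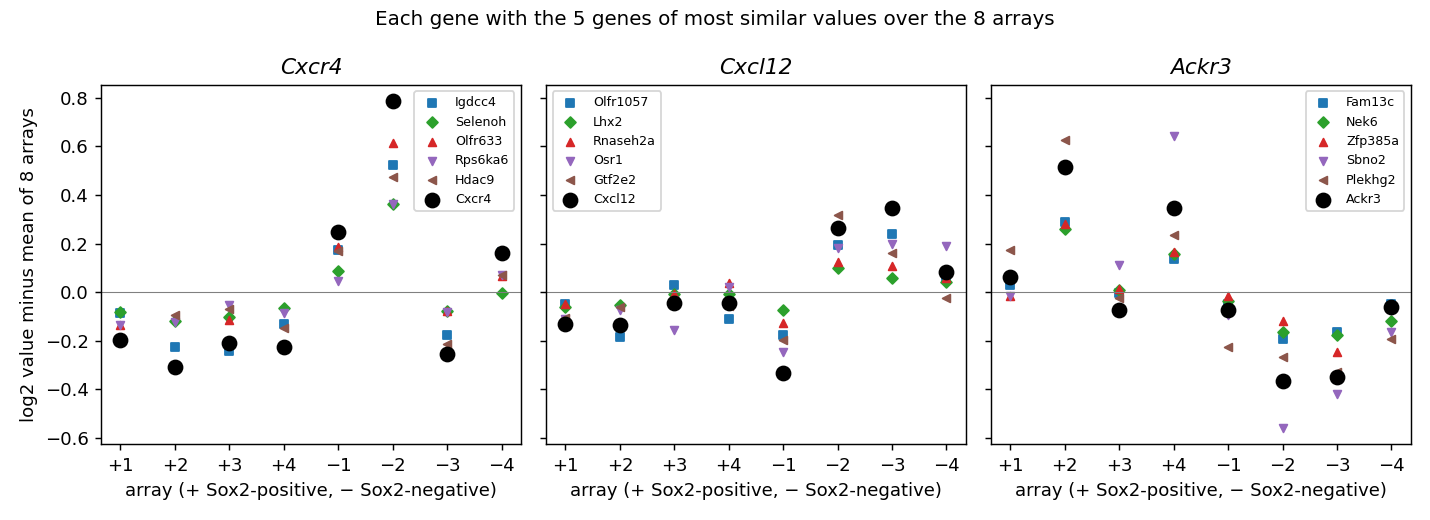
Log2 value minus the gene's mean over the 8 arrays (vertical axis) on each array (horizontal axis, + for Sox2-positive and − for Sox2-negative pools), for each member (large black points) and the 5 genes most like it. The Cxcr4 panel turns on Sox2-negative pools 2 (high) and 3 (low), while in the Ackr3 panel Sox2-positive pools 2 and 4 lie above Sox2-negative pools 2 and 3.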

How the data were processed

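The authors deposited 1 log2 value per probe set and array. The submitters' processing notes name RMA and Affymetrix Expression Console 1.2.0.20. RMA corrects background, equalises the distributions of all arrays and combines probes. It compresses differences of dim genes, and differences in total RNA per cell are lost. The range of 2.51 to 13.6 gives the scale. The arrays' number limits the precision, and the genome build used is not given in the sources used here.

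Of 41345 probe sets, 23521 carried 1 gene symbol in the platform annotation. The one with the highest mean over 8 arrays was kept per gene, which left 22180 genes. The test was that of limma 3.58.1 under R 4.3.3 (lmFit and eBayes, group as the only term, two-sided, Benjamini-Hochberg over all genes, threshold 0.05). Positive differences are higher in Sox2-positive cells. The fit was tested on simulated data. The guide to dim values was 1394 olfactory and vomeronasal receptor genes (upper quartile 5.80).

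The members and the 12 gene lists were chosen with earlier results of these data known. The genes named were the 3 members, the 5 most alike and 3 most opposed genes of each, up to 3 genes per list past the test or else the largest difference, and Sox2. Genes named beyond this, as counts or background needed, were chosen after their values were seen. Some list genes were not analysed here, as no probe set carried their symbol alone. Pools are numbered 1 to 4 in both fractions without a stated pairing. Deviations from group means correlated at 0.165, 0.114, 0.177 and 0.241 between equal numbers, so the number was also used as a block in an alternative.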

Additional observations from a re-analysis of the deposited data

Results flagged for a closer look

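In 7 of the 104 groups of 4 arrays examined, for the 52 genes named by the rule, 1 array lay far from the other 3. Chance gives about 1 in 20. None of the 7 was a group of Cxcr4, Cxcl12 or Ackr3. Arrb1 was at 8.05 in Sox2-positive pool 2 against 7.75 to 7.78 in the others. In the same pool Zic2 was at 8.24 against 8.60 to 8.63, and Foxc1 was at 5.18 against 4.76 to 4.81. Olig2 was at 9.85 in Sox2-positive pool 3 against 9.02 to 9.15. Ptprc was at 4.66 in Sox2-positive pool 4 against 4.39 to 4.42. Pax6 was at 8.60 in Sox2-negative pool 4 against 8.87 to 8.91, and Osr1 was at 5.94 in Sox2-negative pool 1 against 6.37 to 6.38.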

How the results depend on the processing

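The limits are those of 4 pools per fraction, 1 probe set per member and values whose background level is not known. Each of the 3 log2 differences kept its direction under the 11 of 15 alternatives that could move it. The other 4 (replicate block, variance trend, dim genes left out, mean of probe sets) change only the test of these genes, or nothing. Cxcr4 passed the test without Sox2-negative pool 3 and with quantile normalization (-0.55). Ackr3 passed without Sox2-positive pool 3, with the replicate block and with dim genes left out (0.43 in both), and Cxcl12 did not pass limma's test under any. Leaving out 1 array gave -0.63 to -0.29 for Cxcr4, 0.33 to 0.52 for Ackr3 and -0.32 to -0.09 for Cxcl12. Exact permutation p-values then ran from 0.0286 to 0.143 for Cxcr4, 0.0286 to 0.571 for Cxcl12 and 0.0286 to 0.114 for Ackr3, and with median centring that of Ackr3 was 0.0286, the smallest that 4 against 4 arrays allow. Over all genes, 558 were lower in Sox2-positive cells, 309 to 591 with 1 array left out and 847 with quantile normalization. Of the pathway and family lists 13 distinct genes were higher (9 to 14 with 1 array left out) and 2 lower (1 to 2). For the 71 other genes refitted, 995 of 1060 alternative values kept their side of the threshold, 62 lost it, 3 gained it and 0 reversed. The replicate block changed no call of these 71 genes, and of the members only that of Ackr3. The 71 were genes named or already called, and other list genes gained calls with the block. Pathway and family genes higher went from 13 to 15, granule neuron progenitor markers lower from 10 to 11 and pericyte markers lower from 0 to 1. The cause was not tested for any of these changes. With dim genes left out, fewer genes were tested and the fit was also run anew (SE of Ackr3 0.133 against 0.131). A separate fit of other probe sets of the members was not run, as each has 1.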
